A study of Mus musculus with 47 samples.

Results

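The RUNX and Ikaros families are followed here through mouse dendritic cell (DC) development by 8 transcripts among the 21000 genes of the count files. The members were picked by gene symbol, with earlier results of these data known. They were the RUNX genes Runx1, Runx2 and Runx3, their partner Cbfb, and Ikzf1, Ikzf2, Ikzf3 and Ikzf5. All 8 symbols had 1 row in each file. Over all groups Runx2 varied most, with group means from 31.4 to 1291 CPM (read counts scaled to a common library total).

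RNA sequencing libraries were made from wild-type (WT) cells or from cells lacking an enhancer of Irf8, the gene of a transcription factor on which type 1 conventional DCs (cDC1) depend, 47 libraries in 17 groups. Primary WT cells were MDP (monocyte-dendritic cell progenitors), CDP (common dendritic cell progenitors) and pre-cDC1 from bone marrow, and pre-cDC1 and cDC1 from spleen. WT cells from bone marrow cultured with the cytokine Flt3L were MDP, CDP, pre-cDC1, pre-cDC2, cDC1 and cDC2. Cultured pre-cDC1 also came from genotypes labelled d+32 (deficient in the Irf8 +32 kb enhancer), d+32het and d+56het (heterozygous for loss of the +32 kb or the +56 kb enhancer). Cultured cDC1 of genotypes d+56 and d+32 had been rescued with IRF8, and the matching WT cDC1 carried MSCV, read here as the empty retroviral vector. Primary CDP and splenic cDC1 had 1 library each and were not tested; the other 15 groups had 3. The ages of the mice and the number of animals behind a library are not given in the labels used here. The design text speaks of duplicates while the labels number 3 libraries per group, and the p-values reflect how much those libraries vary, which may be partly technical variation.

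Library totals ran from 14660655 to 43084069 expected counts (median 28884353), and the reads carried no molecular identifiers. Titles and file names exchange the cell types for replicates 1 and 2 of cultured pre-cDC2 and of cultured cDC1 without virus. These 4 libraries were placed by file name, and each called member that rests on them is also given without them. Under the file names, Sirpa, a cDC2 surface receptor, stood at 38.9 and 88.2 CPM in the cDC1 pair and at 134 in the undisputed cDC1 library, against 1167 and 1691 in the pre-cDC2 pair and 616 in the undisputed pre-cDC2 library. Xcr1, Irf4 and Clec10a also separated these groups. Clec9a, a cDC1 marker, did not. It stood at 142 and 211 CPM in the cDC1 pair and at 204 in the undisputed cDC1 library. The pre-cDC2 pair held 147 and 120, and the undisputed pre-cDC2 library 224. Irf8 itself stood at 3420 ± 126 CPM (mean ± SD, n = 3) in WT pre-cDC1, 1227 ± 116 in d+32het, 984 ± 97.97 in d+56het and 493 ± 37.8 in d+32. The enhancer-deleted pre-cDC1 also differed from WT in identity markers. The summed level of 8 cDC1 markers was 1740 to 2081 CPM in the WT libraries and 275 to 310 in d+56het, while 9 plasmacytoid DC (pDC) markers summed to 301 to 407 CPM in WT and 1895 to 2806 in d+56het. In bulk RNA, fewer cells of a type and less RNA per cell cannot be told apart.

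RUNX proteins bind DNA through the Runt domain and act as a complex with CBFβ, the product of Cbfb, which does not touch DNA itself but raises the affinity of the complex. RUNX1 is required for the emergence of blood stem cells, RUNX2 is the master regulator of bone formation and is also used by pDC, and RUNX3 acts in CD8 T cells, innate lymphoid cells and Langerhans cells. Ikaros proteins are zinc finger factors that bind DNA as dimers within the family and recruit the NuRD corepressor complex. IKZF1 (Ikaros) acts across blood development and is needed for pDC, IKZF2 (Helios) and IKZF3 (Aiolos) are best known in T and B lymphocytes, and IKZF5 (Pegasus) is a more distant member.

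The genes lie on separate chromosomes apart from Ikzf1 and Ikzf3, which share chromosome 11 (GRCm38.p6). Runx1 spans 92601466 to 92826074 on chromosome 16, Runx2 44495987 to 44814797 on chromosome 17 and Runx3 135120645 to 135177990 on chromosome 4. Cbfb spans 105170674 to 105217989 on chromosome 8 and Ikzf1 11684962 to 11772930 on chromosome 11. RefSeq gave 9 windows of 250 bases before a transcript start for 6 of the 8 members. The RUNX hexamers TGTGGT and TGCGGT were searched on both strands, where the reverse of the first reads ACCACA. Only the window at the outer Runx3 start held a pair, and the Runx2 window held 1. These are shown as the windows that held a hexamer. The Runx1 windows held 0. Any link between these hexamers and the level of a gene was not tested. Bases are 5′ to 3′ on the gene's strand, with the hexamers in capitals:
Runx3 before the outer start, chr4:135120395-135120644, plus strand: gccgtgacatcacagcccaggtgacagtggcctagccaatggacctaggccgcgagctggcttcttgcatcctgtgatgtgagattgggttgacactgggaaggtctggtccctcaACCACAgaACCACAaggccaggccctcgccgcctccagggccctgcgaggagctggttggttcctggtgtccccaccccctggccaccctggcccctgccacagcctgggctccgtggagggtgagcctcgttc
Runx2 hexamer with 10 bases on each side, chr17:44814692-44814717, minus strand: gaggtcacaaACCACAtgattctgtc
Of 32851 such mouse windows in RefSeq, 18.6% held at least 1 of these hexamers and 2.01% at least 2. The Runx3 hexamers begin 134 and 126 bases before that start. The Runx2 hexamer begins 80 bases before the start that the RefSeq table uses, whose window of 44814628 to 44814877 overlaps the outer end of the annotated gene, so this hexamer lies inside the gene span given above. The Ikaros core TGGGAA, on either strand, was in the same Runx3 window once and in 21.6% of all windows. A match of letters is not evidence of binding, and the counts are per gene, so use of one start or another was not measured.

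Across the 17 groups, 6 members had counts in every library and Ikzf2 and Ikzf3 were near the limit of detection. These CPM are not corrected for transcript length and serve to compare groups, not genes. Median levels over the 47 libraries were 608 CPM for Ikzf1, 449 for Cbfb, 276 for Runx1, 236 for Runx2, 101 for Runx3 and 12.5 for Ikzf5. Ikzf2 had a median of 0.830 CPM and no library above 4.45. Ikzf3 had counts in 9 of 47 libraries, with at most 94 counts, and the 38 libraries at 0 allow up to 0.0696 to 0.205 CPM by counting error alone. The highest group mean was 41.2 times the lowest for Runx2, against 3.69 for Runx1, 3.53 for Runx3, 3.01 for Ikzf5, 2.49 for Cbfb and 2.08 for Ikzf1. Ordered by mean, neighbouring groups separated without overlap in 3 of 16 steps for Runx2, 5 for Runx3, 1 for Runx1, 2 for Ikzf1, and 0 for Cbfb and Ikzf5. Some of these steps involved primary CDP or splenic cDC1, each a single library without a spread. How many of all genes separate so is not given here, nor for the comparisons below. Libraries without overlap there describe the values and do not replace the test.

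Levels between genes were compared per kb of exon (the union of exons in GENCODE vM21), since no source used here names the annotation behind the counts. In cultured MDP, Runx2 made up 50.7% ± 3.96 (SD, n = 3) of the summed RUNX transcripts, Runx1 33.7% ± 4.47 and Runx3 15.6% ± 0.938. In cultured CDP Runx2 held 73.4% ± 3.32. In cultured pre-cDC1 the share of Runx2 was 14.2% ± 5.18, with 50.1% ± 4.05 for Runx1 and 35.7% ± 2.46 for Runx3. The composition of cultured CDP was thus dominated by Runx2 and that of cultured pre-cDC1 by Runx1 and Runx3. Marrow pre-cDC1 held 78.1% ± 5.58 Runx2 and 4.63% ± 0.970 Runx3. Cbfb, per kb, exceeded the sum of the 3 RUNX genes in all libraries of 11 groups, among them MDP, pre-cDC1 and cDC1 from culture. The sum of RUNX transcripts exceeded Cbfb in all 3 marrow pre-cDC1 libraries (232 ± 24.6 against 214 ± 27.3 CPM per kb) and in the primary CDP library (209.5 against 173). Within the Ikaros family, Ikzf1 made up 94.7% to 98.5% of the transcripts per kb in every library.

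**Figure D1:**
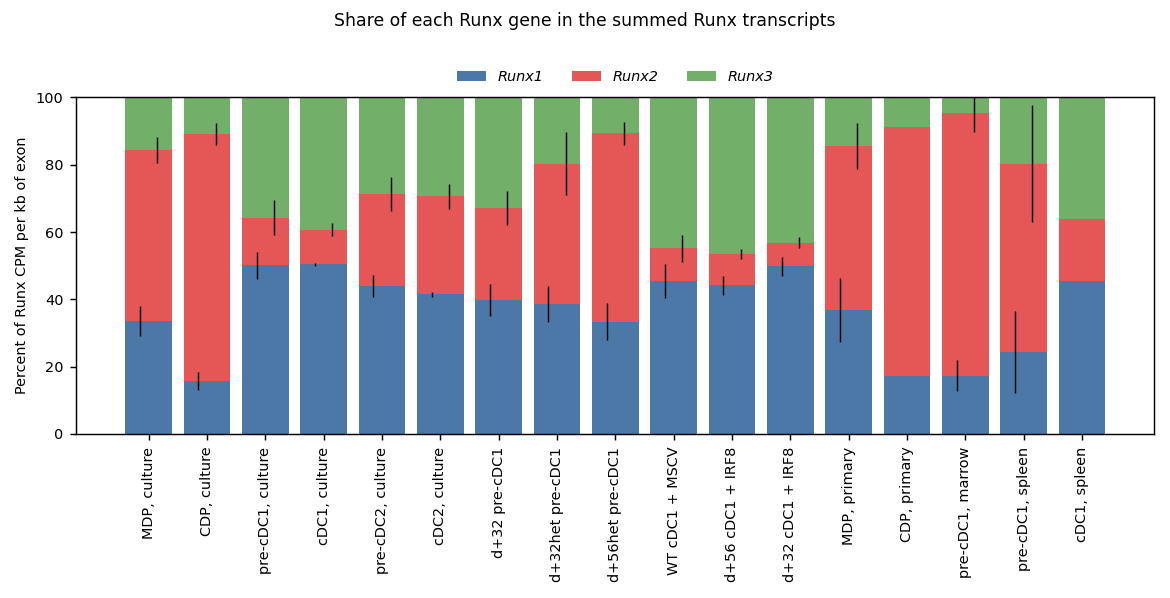
Share of Runx1, Runx2 and Runx3 (y axis, percent of their summed CPM per kb of exon) in each group (x axis). Bars are group means, and the black lines are 1 SD of the Runx1 share (left line) and the Runx2 share (right line) for groups of 3. The Runx2 share is 73.4% in cultured CDP, 14.2% in WT pre-cDC1 and 56.1% in d+56het pre-cDC1.

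The first comparison follows WT cells through the culture. From CDP to either committed precursor, Runx2 fell while Runx1 and Runx3 rose. The 3 cultured MDP libraries held 271 to 328 CPM of Runx2, and the CDP libraries 657, 866 and 891. The pre-cDC1 libraries held 50.9, 96.3 and 141 CPM. No CDP library overlapped with another cultured WT group for Runx2.

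Between cultured CDP and MDP, 0 of 8 members were called by edgeR's quasi-likelihood test at an adjusted p of 0.05, where 1% of 12343 genes were. Runx2 had a log2 fold change of 1.42 (SE 0.35, adjusted p = 0.0751) and Runx3 0.35 (SE 0.13, adjusted p = 0.261). Runx2 passed with DESeq2 (adjusted p = 0.00339). At an unadjusted p of 0.05 both Runx2 and Runx3 would have been counted.

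From CDP to pre-cDC1, 3 of 8 members were called, beside 25.1% of all genes. The Runx2 mean was 8.38 times higher in CDP than in pre-cDC1 (log2 fold change -3.07, SE 0.37, adjusted p = 2.67e-05). The pDC markers summed to 1053 to 1351 CPM in CDP and 301 to 407 in pre-cDC1 (5 of 8 tested lower, 1 higher), and the monocyte markers to 690.5 to 1185 and 288 to 328 (4 of 6 lower). Their part in the Runx2 level was not tested. Runx1 stood at 173, 177 and 186 CPM in CDP and at 328, 331 and 370 in pre-cDC1, and the groups did not overlap. Its mean was 1.92 times higher in pre-cDC1 (log2 0.94, SE 0.15, adjusted p = 0.000327). Runx3 stood at 64.9, 71.5 and 71.9 CPM in CDP and at 123, 143 and 146 in pre-cDC1. That is 1.98 times as much in pre-cDC1 (log2 0.98, SE 0.13, adjusted p = 6.04e-05). Ikzf1 was lower in pre-cDC1 by a margin that missed the threshold (574 ± 97.1 against 744 ± 97.8 CPM, n = 3 each, adjusted p = 0.0521). It was called by DESeq2, with the replicate number as a block and without pre-cDC1 replicate 3.

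From CDP to pre-cDC2, 4 of 8 members were called, beside 21.1% of all genes. The pre-cDC2 libraries held 133, 211 and 269.6 CPM of Runx2, and CDP was 3.93 times higher (log2 -1.97, SE 0.35, adjusted p = 0.00105). Runx1 rose 1.88 times (log2 0.91, SE 0.15, adjusted p = 0.000540) and Runx3 1.77 times (log2 0.83, SE 0.13, adjusted p = 0.000364). Ikzf1 fell from 744 ± 97.8 to 534 ± 76.8 CPM (log2 -0.48, SE 0.13, adjusted p = 0.0198). Without the libraries of conflicting label, pre-cDC2 rests on 1 library, which is assumed to vary like the other groups. Runx1, Runx2 and Runx3 were still called (log2 0.75, -2.61 and 0.69), and Ikzf1 was not (log2 -0.54, adjusted p = 0.114). The Ikzf1 call was lost in 5 of 13 alternatives, also in a fit of CDP and pre-cDC2 alone, without CDP replicate 1 and without pre-cDC2 replicate 2 or 3 (adjusted p up to 0.122). The pre-cDC1 and pre-cDC2 comparisons share the CDP libraries, so the like direction of the 3 RUNX genes in them is not independent. The cDC1 markers summed to 1163 to 2096 CPM in pre-cDC2, which overlapped with the 1740 to 2081 of pre-cDC1. Mast cell and basophil markers summed to 112 to 358 CPM in pre-cDC2 and 2.01 to 6.04 in CDP. Their part in the member differences was not tested.

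Cbfb was not called from CDP to either precursor (log2 0.31, adjusted p = 0.180, and 0.30, adjusted p = 0.214). Ikzf5, at 17.9 ± 3.56 CPM in CDP, stood at 13.7 ± 3.79 in pre-cDC1 and 14.4 ± 4.03 in pre-cDC2 and was not called. Ikzf2 stayed under 2 CPM in all libraries of these 3 groups. Ikzf3 had 2 counts in 1 CDP library, 29 in 1 pre-cDC2 library and 0 in the others.

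Between pre-cDC1 and cDC1, 0 of 8 members were called, beside 7.03% of all genes. Ikzf3 is among the 8 but had 0 counts in both groups, so it could not be called. The cDC1 libraries held 40.9, 49.2 and 82.7 CPM of Runx2. Runx2 had a log2 fold change of -0.74 (SE 0.35, adjusted p = 0.217), and -0.21 without the conflicting libraries. Under the titles its direction turned (log2 0.97, adjusted p = 0.404). At an unadjusted p of 0.05, Cbfb (log2 -0.50, adjusted p = 0.0813), Ikzf1 (-0.39, adjusted p = 0.0938) and Ikzf5 (-0.54, adjusted p = 0.213) would have been counted, and DESeq2 called no member. Without the conflicting libraries these were -0.60, -0.45 and -0.30 (adjusted p = 0.253, 0.272 and 0.697). Between pre-cDC2 and cDC2, 1 of 8 members was called, beside 18% of all genes. Cbfb stood at 449, 566 and 586 CPM in pre-cDC2 and at 279, 401 and 447 in cDC2 (log2 -0.51, SE 0.16, adjusted p = 0.0442). That call rests close to the threshold and was lost without the conflicting libraries (adjusted p = 0.154) and in 8 of the other 12 settings, among them without cDC2 replicate 2 or 3 and without pre-cDC2 replicate 1 or 3, with adjusted p up to 0.435. Runx2, at a log2 of 0.13 (adjusted p = 0.843), was 0.77 without the conflicting libraries (adjusted p = 0.336) and was called under the titles (1.60, adjusted p = 0.0445).

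The mature subsets differed in Runx2 and Ikzf1, with 2 of 8 members called beside 13.6% of all genes. The cDC2 libraries held 163, 246 and 265 CPM of Runx2, 3.90 times the mean of cDC1 (cDC1 minus cDC2, log2 -1.96, SE 0.36, adjusted p = 0.00195). Ikzf1 stood at 418, 428 and 468 CPM in cDC1 and at 592, 698 and 707 in cDC2 (log2 -0.60, SE 0.13, adjusted p = 0.00751). Both groups were separate for either gene, and the share of all genes that separate so is not given here. The pDC markers summed to 1061 to 1235 CPM in cDC2 and 234 to 340.5 in cDC1 (5 of 8 tested lower in cDC1), and their part in these differences was not tested. Without the conflicting libraries, cDC1 is 1 library, and neither gene was called (Runx2 log2 -1.44, adjusted p = 0.142; Ikzf1 log2 -0.67, adjusted p = 0.104). Under the titles, Runx2 was -0.26 (adjusted p = 0.816). Ikzf3 had 7, 58 and 74 counts in the 3 cDC2 libraries and 0 in the 3 cDC1 libraries. Its adjusted p was 0.102, and B cell markers stood at 52.6 to 78.7 CPM in summed level in cDC2 and at 8.42 to 18.7 in cDC1, with Pax5 at 0 in both; their part in the Ikzf3 counts was not tested.

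**Figure D2:**
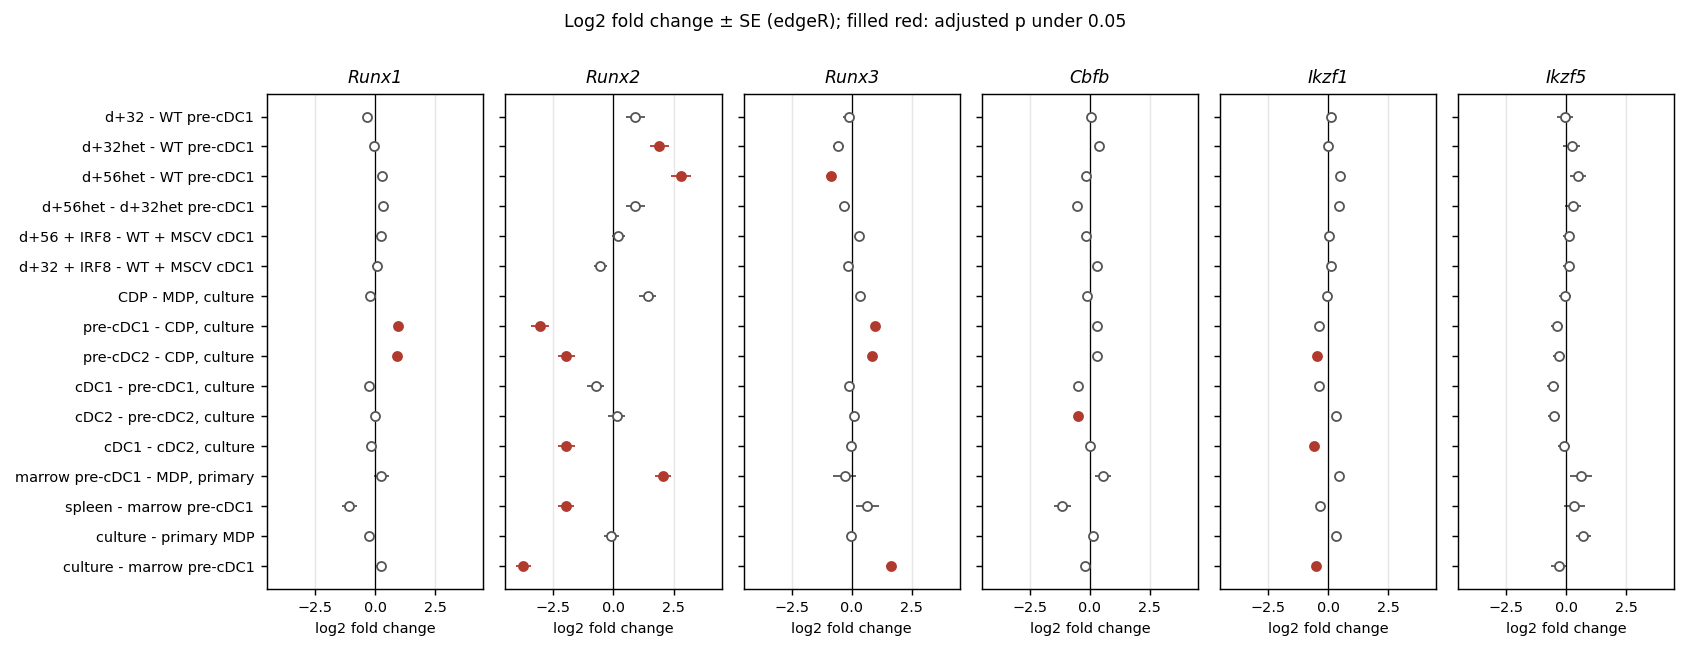
Log2 fold change (x axis) of 6 members in the 16 comparisons of 2 groups (y axis). Points are edgeR estimates, bars are 1 SE, and filled red points have an adjusted p under 0.05. Runx2 was called in 8 comparisons, Runx3 in 4, Ikzf1 in 3, Runx1 in 2, Cbfb in 1 and Ikzf5 in 0.

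The second comparison asks how loss of an Irf8 enhancer changes these factors in cultured pre-cDC1. Both heterozygous genotypes held more Runx2 than WT, and d+56het also held less Runx3. Runx2 stood at 50.9, 96.3 and 141 CPM in WT, at 132, 199 and 210.4 in d+32, at 236, 295 and 551 in d+32het and at 538, 679.6 and 794 in d+56het. All 3 libraries of each heterozygous genotype lay above every WT library, whereas d+32 overlapped with WT at its lowest library.

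In d+56het, 2 of 7 tested members were called (Ikzf3 had no counts), beside 12.4% of all genes. The Runx2 mean was 6.99 times that of WT (log2 2.82, SE 0.42, adjusted p = 0.00196). This made Runx2 56.1% ± 3.42 of the RUNX transcripts per kb. Runx3 stood at 46.5, 83.0 and 95.99 CPM in d+56het and at 123, 143 and 146 in WT, without overlap (log2 -0.86, SE 0.23, adjusted p = 0.0331). The Runx3 call was lost when the fit held WT and d+56het alone (adjusted p = 0.11), without any one WT replicate and without d+56het replicate 3 (adjusted p from 0.0539 to 0.1). Ikzf1 stood at 744, 811 and 846 CPM in d+56het and at 489, 552 and 679.9 in WT, again without overlap, and missed the threshold (log2 0.49, SE 0.14, adjusted p = 0.0515). It was called by DESeq2 (adjusted p = 0.00782) and without WT replicate 3 (adjusted p = 0.0240). The share of all genes whose libraries did not overlap in this comparison is not given here. Runx1 stood at 383 to 428 CPM against 328 to 370 in WT (log2 0.27, adjusted p = 0.189). The pDC marker sums given above moved with Runx2 in d+56het (6 of 8 tested higher). The 9 cDC2 markers summed to 506 to 666 CPM in WT, 2727 to 3422 in d+56het, 2105 to 2193 in d+32het and 2735 to 3577 in d+32, and all 9 were called higher in each of the 3 genotypes. The part of these markers in the Runx2 level was not tested.

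In d+32het, 1 of 7 tested members was called, beside 3.71% of all genes. Runx2 had a mean 3.76 times that of WT (log2 1.91, SE 0.41, adjusted p = 0.0316). The call was lost when the fit held WT and d+32het alone, without d+32het replicate 2 or 3 and without WT replicate 1 or 2 (log2 1.46 to 2.03, adjusted p up to 0.116). Runx3 stood at 93.5 to 94.2 CPM in the 3 d+32het libraries, below all WT libraries, with an adjusted p of 0.230 (log2 -0.55, SE 0.22). Cbfb stood at 663 to 739.8 CPM, above the 474 to 600.1 of WT (log2 0.39, adjusted p = 0.244). For neither gene is the share of all genes that separate so given here. The pDC markers summed to 1092 to 1364 CPM in d+32het. In d+32, 0 of 7 tested members were called by edgeR, beside 4.52% of all genes. Its Runx2 had a log2 fold change of 0.90 (SE 0.40, adjusted p = 0.295), and DESeq2 also called no member. Runx1 (log2 -0.33, adjusted p = 0.196) and Runx2 passed at an unadjusted p of 0.05. Mast cell and basophil markers summed to 151 to 392 CPM in d+32 and 1.68 to 18.6 in WT, with 0 of 7 called. Their part in the member levels was not tested.

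A direct test of d+56het against d+32het called 0 of 7 tested members with edgeR, beside 0.526% of all genes, and 2 with DESeq2 (Cbfb and Ikzf1). At an unadjusted p of 0.05, Runx1, Runx2, Cbfb and Ikzf1 would have been counted. Runx2 was higher in d+56het by 0.91 (SE 0.40, adjusted p = 0.347), with 1 pair of libraries out of order, 551 CPM in d+32het replicate 3 and 538 in d+56het replicate 2. All 3 genotypes were set against the same 3 WT libraries, so their directions are not independent. Ikzf2 had group means of 0.839 to 1.86 CPM in the 4 genotypes and Ikzf5 13.2 to 19.1, neither called, and Ikzf3 had 0 counts in all 12 libraries.

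After IRF8 rescue, the members of cDC1 from either deletion were not called as different from WT cDC1 with MSCV. In d+56 cDC1, 0 of 7 tested members passed, beside 1.65% of all genes, and in d+32 cDC1 0 of 7, beside 2.07%. DESeq2 also called none. Runx2 stood at 25.9, 49.3 and 62.0 CPM in WT with MSCV, at 46.3, 54.2 and 58.7 in d+56 with IRF8, and at 28.0, 31.1 and 35.0 in d+32 with IRF8. The d+56 libraries fell inside the range of WT and the d+32 libraries near its lower end (log2 0.20, SE 0.27, and -0.55, SE 0.27). Runx3 stood at 151, 156 and 161 CPM in d+56 with IRF8, above the 111, 127 and 137 of WT. That difference of 0.31 (SE 0.13) had an adjusted p of 0.300 and an unadjusted p of 0.0387. For d+32, no member passed at an unadjusted p of 0.05. The rescues differed in Irf8 itself, at 3576 ± 184 CPM in WT with MSCV, 3622 ± 194 in d+56 and 1338 ± 177 in d+32. The cDC2 markers summed to 203 to 307 CPM in WT with MSCV, 478 to 547 in d+56 and 1083 to 1254 in d+32. Ikzf1 stood at 403 ± 18.1, 418.5 ± 19.3 and 439 ± 9.61 CPM in these 3 groups, next to 438 ± 26.8 in untransduced WT cDC1. A miss of the threshold does not show that the rescued cells had WT levels.

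In primary cells, Runx2 rose on the way to marrow pre-cDC1 and was lower again in the spleen. Runx2 stood at 259, 305 and 355 CPM in primary MDP, at 1041, 1379 and 1454 in marrow pre-cDC1, and at 181, 340 and 491 in splenic pre-cDC1. The single primary CDP library held 1101 CPM and the single splenic cDC1 library 43.0. The marrow pre-cDC1 libraries were separate from both other tested groups.

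Between marrow pre-cDC1 and MDP, 1 of 8 members was called, beside 8.24% of all genes. Ikzf3, counted in the 8, had 0 counts in both groups and could not be called. The Runx2 mean was 4.21 times higher in pre-cDC1 (log2 2.06, SE 0.34, adjusted p = 0.00941). Runx3 stood at 40.2, 43.7 and 48.7 CPM in marrow pre-cDC1, within the 35.2 to 65.5 of MDP (log2 -0.28, adjusted p = 0.808). Runx1 also overlapped, at 238 to 336 CPM against 182 to 291. Ikzf1 stood at 811, 827 and 835 CPM against 553, 608 and 623, without overlap (log2 0.45, SE 0.15, adjusted p = 0.112), and was called by DESeq2 and in a fit of these 2 groups alone. How many of all genes lacked overlap here is not given. The cDC1 markers summed to 381 to 416 CPM in marrow pre-cDC1 and to 54.1 to 60.5 in MDP. The pDC markers summed to 864 to 1838 CPM and 431 to 491 (3 of 9 tested higher in pre-cDC1, Siglech, Spib and Tcf4). The part of these markers in the Runx2 level was not tested.

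Between spleen and marrow pre-cDC1, 1 of 8 members was called, beside 1.88% of all genes. The Runx2 mean was 3.83 times higher in marrow (spleen minus marrow, log2 -1.97, SE 0.34, adjusted p = 0.0303). The call did not hold in a fit of the 2 pre-cDC1 groups alone, without any one marrow replicate and without splenic replicate 2 (log2 -1.87 to -2.10, adjusted p up to 0.126). Runx1 and Cbfb were lower in all 3 splenic libraries than in any marrow library, at 99.9 to 194 and 146 to 396 CPM, with adjusted p of 0.162 and 0.185. Without splenic replicate 3, both were called (log2 -1.41, adjusted p = 0.0205, and -1.49, adjusted p = 0.0364). The share of all genes that separate between spleen and marrow is not given here. Splenic libraries varied: Runx3 ran from 25.0 to 105 CPM, and B cell markers summed to 40.7 to 256 CPM. Ikzf3 had 37 counts in splenic pre-cDC1 replicate 3 and 94 in splenic cDC1, and the part of B cell transcripts in these counts was not tested.

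The difference between MDP and pre-cDC1 was not the same in culture and in marrow for Runx2, Runx3 and Ikzf1. Between the MDP from both sources, 0 of 7 tested members were called by edgeR and by DESeq2, beside 8.28% of all genes with edgeR. Runx2 was 299.8 ± 28.5 CPM in cultured and 307 ± 48.2 in primary MDP (log2 -0.08, SE 0.29), and Runx3 54.4 ± 1.49 and 53.3 ± 16.003. Ikzf1 was the one member of the MDP comparison at an unadjusted p under 0.05 (766 ± 36.0 in culture and 595 ± 36.9 in primary cells, adjusted p = 0.142). Its libraries ran from 729 to 801 CPM in culture and from 553 to 623 in primary cells, without overlap. How many of all genes separate between the MDP sources is not given here.

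Between the pre-cDC1 from both sources, 3 of 7 tested members were called, beside 21.9% of all genes. The Runx2 mean was 13.5 times higher in marrow than in culture (culture minus marrow, log2 -3.75, SE 0.33, adjusted p = 3.97e-05). Runx3 was 3.10 times higher in culture (log2 1.64, SE 0.20, adjusted p = 0.000286). Ikzf1 was 1.44 times higher in marrow (log2 -0.52, SE 0.12, adjusted p = 0.0110). No library of one source overlapped with the other for these 3 genes. The share of all genes without such overlap is not given here. The sources also differed in markers, with cDC1 markers at 1740 to 2081 CPM in culture and 381 to 416 in marrow, and monocyte markers at 288 to 328 and 1018 to 1813. The pDC markers stood at 301 to 407 CPM in culture and 864 to 1838 in marrow (5 of 8 tested lower in culture), and 7 of 9 cDC2 markers were also lower in culture. Their part in the member differences was not tested.

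A test of the difference between the steps, added after the values were seen, called 3 of 7 tested members, beside 11.4% of all genes. The step in culture minus the step in marrow was -3.66 for Runx2 (SE 0.43, adjusted p = 0.000808), 1.66 for Runx3 (SE 0.28, adjusted p = 0.00469) and -0.83 for Ikzf1 (SE 0.17, adjusted p = 0.0117). Over the alternatives tried, the adjusted p was at most 0.00498 for Runx2, 0.0159 for Runx3 and 0.0350 for Ikzf1. Runx1 (0.49, adjusted p = 0.272), Cbfb (-0.32, adjusted p = 0.392), Ikzf2 and Ikzf5 were not called, and Ikzf3, with 0 counts in all 12 libraries, was not tested. Sorting gates and culture cannot be told apart in this difference.

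**Figure D3:**
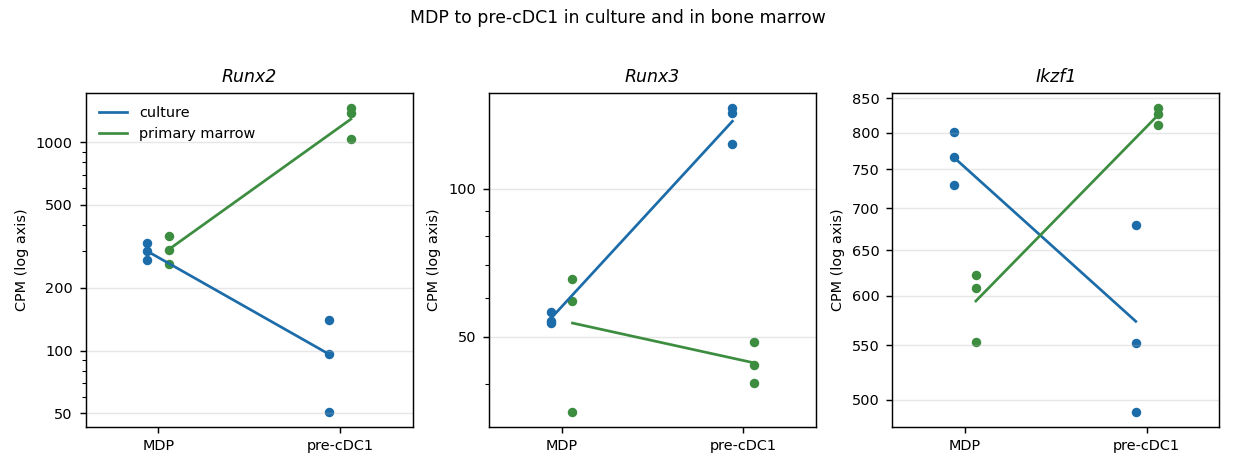
Level in CPM (y axis, log) of Runx2, Runx3 and Ikzf1 in MDP and pre-cDC1 (x axis) from Flt3L culture and from primary marrow. Points are libraries, 3 per group, and lines join the group means. From MDP to pre-cDC1, Runx2 goes from 299.8 to 96.01 in culture and from 307 to 1291 in marrow.

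The cofactors and known targets of these families were read from lists. Of 14 RUNX cofactors, 14 were tested from CDP to pre-cDC1: 3 rose and 2 fell, where 25.1% of all genes were called, with a median log2 fold change of 0.000804 against -0.04 over all genes. Hipk2, a kinase that phosphorylates RUNX proteins, rose from 33.2 ± 12.5 to 132 ± 33.6 CPM (log2 1.99, adjusted p = 0.000387). Cbfa2t3, an ETO-family corepressor, rose from 149 ± 16.8 to 275 ± 31.0 (log2 0.89, adjusted p = 0.000813). In marrow pre-cDC1 against MDP, 4 of 13 cofactors rose and 0 fell, where 8.24% of all genes were called (738 higher and 347 lower), with a median of 1.08 against 0.00 over all genes. Tle3, a Groucho-type corepressor, had a log2 fold change of 1.65 (adjusted p = 0.00231) there and Cbfa2t3 2.07 (adjusted p = 0.00591). Tle1, another Groucho-type corepressor, was called in d+56het (log2 1.04, adjusted p = 0.00146), in d+32het (0.66, adjusted p = 0.0375) and in cultured CDP against MDP (0.89, adjusted p = 0.0156). Hipk2 fell in d+56het (log2 -1.67, adjusted p = 0.00193) and in d+32 (-1.50, adjusted p = 0.00689).

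Of 9 genes known as RUNX targets, Csf1r was the one called in the most genotypes. Csf1r, the receptor of macrophage colony-stimulating factor, stood at 30.0 ± 14.2 CPM in WT pre-cDC1, 93.2 ± 1.74 in d+32, 80.8 ± 2.88 in d+32het and 107 ± 9.72 in d+56het. Its log2 fold change was 1.63 (adjusted p = 0.00594), 1.43 (adjusted p = 0.0155) and 1.84 (adjusted p = 0.00149) in that order. Csf1r is also one of the monocyte markers. Itgal, the integrin alpha L chain, fell in d+32 (log2 -1.19, adjusted p = 0.00727) and in d+32het (-0.90, adjusted p = 0.0347). In the difference of the MDP to pre-cDC1 steps, 0 of 8 tested targets were higher and 5 lower in culture, where 11.4% of all genes were called, with a median of -1.30 against -0.07 over all genes. Mpo, myeloperoxidase, and Csf1r led them (log2 -5.11 and -2.11, adjusted p = 0.00419 and 0.00629). Mpo is also a neutrophil granule marker and Csf1r a monocyte marker, and 3 of 8 and 4 of 6 of those lists were lower in the same test; their part was not tested. From CDP to pre-cDC1, 2 targets rose and 3 fell, with Spi1, the gene of PU.1, at a log2 fold change of 0.56 (adjusted p = 6.33e-05).

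The 16 Ikaros partners are subunits of NuRD and other corepressors. Their median log2 fold change stayed between -0.19 and 0.18 in all 17 tests, and the most called in one of them was 3 of 16, from CDP to pre-cDC2, where 21.1% of all genes were called. Mbd3, a NuRD subunit, was called lower in d+56het (log2 -0.60, adjusted p = 0.0142) and higher in cDC1 than in cDC2 (0.53, adjusted p = 0.00352). Among the 5 genes of the cereblon ubiquitin ligase, which degrades Ikaros proteins when bound by thalidomide analogues, none was called in the genotype or rescue comparisons. Cul4b, one of its scaffold genes, fell from CDP to pre-cDC1 (log2 -0.91, adjusted p = 0.00168) and to pre-cDC2 (-0.62, adjusted p = 0.0230). Of 7 genes listed as Ikaros targets, most are lymphoid and only 2 to 4 were tested outside the primary cells. Cd79b, a B cell receptor chain also among the B cell markers, stood at 8.47 ± 3.65 CPM in WT pre-cDC1 and 40.9 ± 13.2 in d+56het (log2 2.28, adjusted p = 0.00284). Ikzf4 (Eos), on that list as a family gene, had group means of at most 2.50 CPM.

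Likeness across the 17 group means was measured as Pearson's r of log2 values over 9554 genes with a group mean of at least 10 CPM. Runx2 was most like Golm1 (r = 0.95), Atp2b4 (0.93) and Itsn1 (0.93). Golm1 stood at 123 CPM in cultured CDP, 34.7 in WT pre-cDC1, 94.9 in d+56het and 176 in marrow pre-cDC1. Runx3 was most like Baiap2 (0.93), Xbp1 (0.93) and Dmwd (0.92), and Runx1 was most like Cdyl (0.90), Ctbp2 (0.87) and Otud3 (0.84). For Ikzf1 the nearest were Tex2 (0.92), Usp28 (0.91) and Ripor2 (0.91), for Cbfb Pcmt1 (0.85), Eri1 (0.83) and Lnpk (0.82), and for Ikzf5 Cebpg (0.92), Ppil4 (0.91) and Osgep (0.89). The nearest to Ikzf2 were Mpg, Pgm2 and Alg14 (0.85, 0.84 and 0.84) and to Ikzf3 Poglut1, Arpin and Pla2g4f (0.86, 0.85 and 0.85), which rest on few counts of these members. Between members, r was 0.90 for Runx2 and Ikzf1, -0.54 for Runx2 and Runx3 and -0.63 for Runx3 and Ikzf1. These are descriptions over 17 groups that share genotypes, culture and normalisation.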

How the data were processed

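Each library came as 1 deposited table of expected counts by gene, in the layout of RSEM's gene output, per the file headers. RSEM 1.3.3, STAR 2.7.7a, Picard 2.25.0 and the builds GRCm38 and mm10 are named, without roles, in the submitters' processing notes; the annotation and any removal of duplicate reads are not given in the sources used here. Per the labels' protocols, RNeasy Micro RNA went into SMART-Seq HT and Nextera XT libraries, which mark no strand, so antisense and overlapping genes cannot be separated. Expected counts were rounded; 22 to 66 values per file were not whole.

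Tests used R 4.3.3 and edgeR 4.0.16 (quasi-likelihood F test, TMM, default filter on low counts, Benjamini-Hochberg adjustment over all genes tested, threshold 0.05) in 5 families of groups: pre-cDC1 genotypes, rescued cDC1, cultured WT stages, primary cells, and MDP and pre-cDC1 of both sources. SE is the absolute log2 fold change over the square root of F. DESeq2 1.42.0 was an alternative. CPM use TMM over all 47 libraries. Scripts were tested on simulated counts. Libraries of a group differed by a chi-square of at least 18.4 per degree of freedom, so none was counted as a duplicate. That lowest value was for marrow pre-cDC1 replicates 1 and 2, and the next lowest pair in any group had 34.3. Marrow pre-cDC1 replicate 3 differed from replicates 1 and 2 by 109 and 107. In no comparison did the deviations of all 3 same-numbered pairs correlate above 0.1, so the numbers were not used as pairs. The correlations were 0.0907, 0.0671 and 0.251 in spleen against marrow. In marrow pre-cDC1 against MDP they were -0.105, -0.125 and -0.260. The named genes are the 8 members, the 3 genes most like each, and up to 2 called genes per list and comparison, some of which are not reported here; Gm, Rik and -ps symbols were left out of the likeness search. Members and lists were chosen with earlier results of these data known, and the test of the difference between steps was added after the values were seen. Sequences are from RefSeq, GRCm38.p6.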

Additional observations from a re-analysis of the deposited data

Results flagged for a closer look

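Runx2, Runx3 and Ikzf1 are listed because their step from MDP to pre-cDC1 differed between culture and marrow by a test of the difference itself. That test was added after the values were seen. The step in culture minus the step in marrow was -3.66 for Runx2 (SE 0.43, adjusted p = 0.000808, edgeR), 1.66 for Runx3 (SE 0.28, adjusted p = 0.00469) and -0.83 for Ikzf1 (SE 0.17, adjusted p = 0.0117). For Runx2, all 3 cultured pre-cDC1 libraries lay below and all 3 marrow pre-cDC1 libraries above their own MDP libraries.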

How the results depend on the processing

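Of 21 called member results, 14 kept their call in every alternative and 7 lost it in at least 1; 10 uncalled ones were called in some alternative and 0 of the 127 member results changed sign while called. Counts of all genes called depended on the setting; the causes were not tested. With DESeq2 they were 2266 (marrow pre-cDC1 against MDP), 1677 (cDC1 against pre-cDC1), 485 (CDP against MDP), 1892 (MDP by source), 1109 and 914 (d+32 and d+56 rescue), 1130, 1293 and 2427 (d+32, d+32het and d+56het against WT), 697 (d+56het against d+32het), 2430 (difference of steps) and 1089 (spleen against marrow). With the compared groups alone they were 3188 (marrow pre-cDC1 against MDP), 464 (cDC1 against pre-cDC1), 1369 (cDC2 against pre-cDC2), 26 (CDP against MDP), 81 (d+32 rescue), 1098 and 184 (d+32 and d+32het), 0 (d+56het against d+32het) and 89 (spleen against marrow). With the conflicting libraries by title they were 566 (cDC1 against cDC2), 16 (cDC1 against pre-cDC1), 1359 (cDC2 against pre-cDC2) and 38 (CDP against MDP), and without them 491, 279 and 1262 in the first 3 of these and 1387 (pre-cDC2 against CDP). Without replicate 3 of the primary groups, an alternative chosen after seeing the data, spleen against marrow gave 624.

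Same-numbered libraries did not pair by the check of their deviations. A fit with the replicate number as a block called 560 genes (marrow pre-cDC1 against MDP), 105 and 118 (d+32 and d+56 rescue), 17 (d+56het against d+32het) and 65 (spleen against marrow), and changed 1 member call, Ikzf1 from CDP to pre-cDC1. In spleen against marrow, the median log2 fold change of all genes was -0.135 with the block and -0.0197 in the main fit.

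Members called with DESeq2 were 2 (marrow pre-cDC1 against MDP), 1 (CDP against MDP), 2 (d+56het against d+32het) and 3 (spleen against marrow). With the compared groups alone they were 3 (marrow pre-cDC1 against MDP), 0 (cDC2 against pre-cDC2), 1 (CDP against MDP), 0 (d+32het), 1 (d+56het) and 0 (spleen against marrow). Members called in cDC1 against cDC2 were 0 by title and 0 without the conflicting libraries, and in cDC2 against pre-cDC2 0 without them, with DESeq2 size factors or with no filter on low counts.

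Leaving out 1 replicate at a time, genes called ran from 455 to 794 (marrow pre-cDC1 against MDP), 42 to 82 (CDP against MDP), 1097 to 1431 (cDC1 against cDC2), 432 to 972 (cDC1 against pre-cDC1), 1408 to 1789 (cDC2 against pre-cDC2), 585 to 852 (MDP by source), 82 to 143 and 55 to 95 (d+32 and d+56 rescue), 223 to 335, 135 to 369 and 793 to 1261 (d+32, d+32het and d+56het), 39 to 67 (d+56het against d+32het), 861 to 1893 (difference of steps) and 68 to 1152 (spleen against marrow). Members called ran from 0 to 1 (cDC2 against pre-cDC2 and d+32het), 1 to 2 (d+56het), 3 to 4 (pre-cDC1 and pre-cDC2 against CDP) and 0 to 3 (spleen against marrow). Ikzf2 and Ikzf3 had low counts and were uneven between libraries of a group, and neither was called in any comparison. Ikzf2 ran from 0.0375 to 4.45 CPM in d+32 cDC1 with IRF8. A miss at these levels does not show that they did not change.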
